A study of Mus musculus with 131 samples.

Results

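The cells described here are 40 single GFP cells picked from mouse blastocysts at E4.0, of 131 samples in the series. They are the samples titled with GFP and a number from 1 to 40, and each cell is its own sample. All 40 carry an Actin-GFP transgene on strain C57BL/6J, and none carries another labelled allele or agent. The design text describes reconstructed embryos, and for its later embryos states that Actin-RFP embryonic stem cells (ESCs) were put into Actin-GFP hosts, so GFP marks cells of the host embryo and not a cell type. The labels do not say how many embryos the cells came from or from which side of the blastocyst each was picked. The 40 cells are therefore treated as 1 sample: values are given over cells, no test is made, and the spread between cells cannot be told apart from the spread between embryos.

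The blastocyst holds an outer epithelium, the trophectoderm, around an inner cell mass that divides into epiblast and primitive endoderm. Trophectoderm becomes the placenta and first pumps and holds the fluid of the cavity. It depends on the transcription factors Cdx2, Tead4, Gata3 and Tfap2c, on simple epithelial keratins and on tight junctions. Primitive endoderm is marked by Gata6, then by Pdgfra, Sox17, Gata4 and Sox7, and lays down the first basement membrane.

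Values are reads per 1000000 reads of the cell (CPM). CPM are not divided by transcript length, so levels are compared between cells for a gene and not between genes. A gene counts as common when it has 10 CPM or more in at least 20 of the 40 cells. Of the 13927 genes in the table, 3520 (25.3%) were common, and this share is the background for every list. The median gene of the table had a median of 0.0 CPM. The level of a list in a cell is the mean of log2(CPM + 1) over its measured members.

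The GFP cells held 2.0 to 8.32 M reads each, with a median of 5.61 M. Rank correlation between pairs of cells over genes was 0.386 to 0.702, with a median of 0.601, and no pair was identical. Reads of mitochondrially encoded genes made up 1.51% to 6.23% in 39 cells and 14.9% in the cell GFP27. GFP27 stood apart in most lists, so correlations over cells are given with and without it. Intervals on shares take the cells as independent, which cells of 1 embryo are not, so they cover counting error only.

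Most of the trophectoderm markers were present in 39 of the 40 cells. In these 39 cells at least 5 of the 6 trophectoderm markers reached 10 CPM (97.5%, exact 95% interval 86.8% to 99.9%), and all 6 did in 16. Over the 6 markers, 5 were common (83.3%, against 25.3% of all genes). The markers were chosen with earlier results of these data known. These shares and the values of the RFP cells below are therefore a description and not independent support. The level of the list was 9.34 at the median, 2.43 in GFP27, 8.48 in the next lowest cell, GFP39, and 10.6 in the highest, GFP21. Among the RFP cells measured in the same table, 1 of 55 had 5 or more markers at 10 CPM, and their median list level was 1.55.

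Krt8 and Krt18, which pair to form the keratin filaments of simple epithelia, lie side by side in the genome. Their start sites are 23.9 kb apart on chromosome 15. The 250 bases before each start, and those before Gata3 and Tspan8, are shown because these markers were at 10 CPM or more in the same 39 cells. They were taken from RefSeq on GRCm38.p6 and are written 5′ to 3′ on the strand of the gene. Capitals mark the matches named after them. Krt8 is at chr15:102004343-102004592 (minus strand), Krt18 at chr15:102027966-102028215 (plus strand), Gata3 at chr2:9878601-9878850 (minus strand) and Tspan8 at chr10:115817034-115817283 (plus strand).
Krt8: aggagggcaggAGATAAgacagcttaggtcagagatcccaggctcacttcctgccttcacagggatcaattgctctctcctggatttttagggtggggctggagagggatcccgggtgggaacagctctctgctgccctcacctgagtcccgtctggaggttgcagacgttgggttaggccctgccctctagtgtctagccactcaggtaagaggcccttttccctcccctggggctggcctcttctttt
Krt18: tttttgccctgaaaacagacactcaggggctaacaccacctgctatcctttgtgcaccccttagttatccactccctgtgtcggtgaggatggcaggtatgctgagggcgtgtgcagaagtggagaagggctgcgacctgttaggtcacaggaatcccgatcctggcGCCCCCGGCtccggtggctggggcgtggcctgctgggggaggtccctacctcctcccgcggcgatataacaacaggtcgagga
Gata3: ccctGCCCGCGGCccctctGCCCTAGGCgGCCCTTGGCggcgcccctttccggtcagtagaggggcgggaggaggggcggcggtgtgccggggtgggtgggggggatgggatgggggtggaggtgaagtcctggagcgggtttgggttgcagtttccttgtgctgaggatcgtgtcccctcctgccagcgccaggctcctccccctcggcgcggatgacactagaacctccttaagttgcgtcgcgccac
Tspan8: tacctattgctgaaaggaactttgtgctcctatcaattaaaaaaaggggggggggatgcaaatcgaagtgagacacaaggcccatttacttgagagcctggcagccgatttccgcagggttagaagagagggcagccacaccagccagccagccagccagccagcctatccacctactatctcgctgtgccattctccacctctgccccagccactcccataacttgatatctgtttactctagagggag
The letters searched on both strands, whose matches do not overlap in the windows shown, were GGAATG, which TEAD factors can bind. For the zinc finger family of Gata3 they were AGATAA. For TFAP2 factors they were GCCNNNGGC. AGATAA occurred once in the Krt8 window, and GCCNNNGGC occurred once in Krt18, 3 times in Gata3 and once in Cdx2. The Tspan8 window held none of these letters. Across the 6 markers, GGAATG was in 0 windows, AGATAA in 1 and GCCNNNGGC in 3. Of 32536 RefSeq windows of this length, 12.6% held GGAATG, 9.97% AGATAA and 13.8% GCCNNNGGC. Over a wider set of 17 markers, keratins and factors the counts were 2, 1 and 6. A match describes these letters only and is not a binding site.

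**Figure D1:**
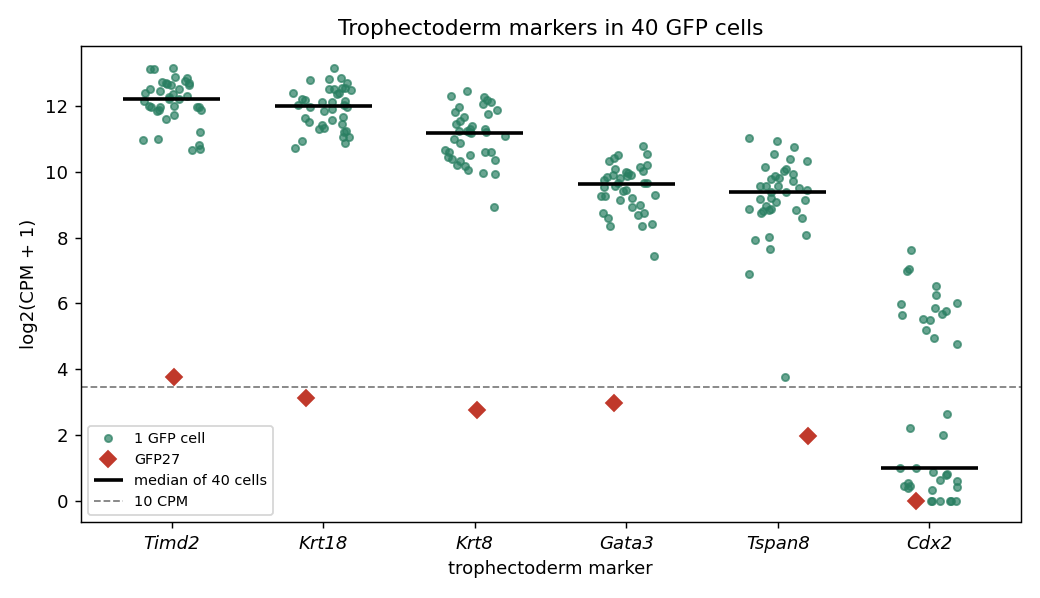
Expression of the 6 trophectoderm markers, as log2(CPM + 1) on the vertical axis, with 1 point per GFP cell and a bar at the median of 40 cells. GFP27 (diamond) is the lowest cell for every marker, and for Cdx2 it shares a value of 0 with other cells. Cdx2 divides into 16 cells above the dashed line at 10 CPM and 24 under it.

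Timd2, a cell-surface receptor of the T cell immunoglobulin and mucin family, ran from 12.6 CPM in GFP27 through a median of 4746 to 9127 in GFP1. It was the marker at 10 CPM or more in all 40 cells, and its next lowest cell, GFP7, had 1637. Krt18 ran from 7.75 CPM in GFP27 through 4145 to 9280 in GFP37, and Krt8 from 5.81 in GFP27 through 2354 to 5701 in GFP37. The same cells were thus at both ends for the keratin pair, and across the 40 cells the rank correlation of Krt8 with Krt18 was 0.72, or 0.70 without GFP27. The points share a library per cell, and the value is a description.

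Gata3, a zinc finger factor of early trophectoderm, had a median of 787 CPM, from 6.78 in GFP27 to 1773 in GFP28. Tspan8, a tetraspanin of epithelial membranes, had a median of 668 CPM, from 2.91 in GFP27 to 2109 in GFP25. GFP3 was nearly as low in Tspan8, at 12.7 CPM, while its Krt8 was 4531 CPM. The rank correlation of Timd2 with Tspan8 was -0.26, and -0.36 without GFP27, so cells high in one of these surface proteins were not in general high in the other.

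Cdx2, the homeobox factor that represses the epiblast programme in trophectoderm, was the marker with a divided pattern. It lay between 26.1 CPM in GFP35 and 198 CPM in GFP31 in 16 cells, and at most 5.21 CPM in the other 24, of which 8 had no read. Eomes, the T-box factor of polar trophectoderm and trophoblast stem cells, reached 10 CPM in 22 cells, up to 218 CPM in GFP25, and had no read in 11. Cdx2 and Eomes were both at 10 CPM in 8 cells, Cdx2 alone in 8, Eomes alone in 14 and neither in 10. Their rank correlation over cells was 0.088, and 0.044 without GFP27. GFP31 had both at high values (198 and 94.0 CPM), and GFP20 had 29.8 CPM of Cdx2 beside 214 of Eomes. Whether cells under 10 CPM lacked these transcripts or detection missed them was not tested.

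Of 17 measured trophectoderm transcription factors, 8 were common, against 25.3% of all genes, and the median member had a median of 4.93 CPM. Id2, an inhibitor of basic helix-loop-helix factors, had a median of 1006 CPM and was at 10 CPM in 39 cells, as were Klf5 (385 CPM) and Gata3. Elf3, an epithelial ETS factor, had a median of 246 CPM and was at 10 CPM in 38 cells. Tfap2c, an AP-2 factor, was in 31 cells with a median of 62.7 CPM, and Tead4, the DNA-binding partner of Yap1, in 24 with a median of 28.6 CPM. Tfap2a was in 12 cells, Ets2 in 11, Gata2 in 8 and Elf5, which maintains trophoblast stem cells, in 2. Dlx3, a later placental factor, had no read in any cell.

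Genes that build the epithelium were read to unlike degrees. Of 5 simple epithelial keratins, 2 were common, Krt8 and Krt18. Krt7 and Krt19 had a median of 0.0 CPM and reached 10 CPM in 16 and 11 cells. Krt42 had no read in any cell. Among 14 junction genes, 9 were common (64.3%, against 25.3% of all genes). They included Cldn7 (median 253 CPM, 38 cells) and Cdh1 (205 CPM, 36 cells). The claudin Cldn4 had a median of 411 CPM in 34 cells and the desmosomal linker Dsp 90.5 CPM in 29. The tight junction genes Ocln and Tjp1 reached 10 CPM in 17 and 11 cells.

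Of 8 genes for pumps and water channels, 6 were common. The sodium pump subunits Atp1b1 (174 CPM) and Atp1b3 (106 CPM) reached 10 CPM in 35 and 29 cells. The water channel Aqp3 had a median of 88.4 CPM in 35 cells and Aqp9 38.8 CPM in 25, while Aqp8 was seen at 10 CPM in GFP36 and GFP39 alone. Of 14 endocytic and surface genes, 8 were common (57.1%). The endocytic receptor Lrp2 had a median of 406 CPM (39 cells), Havcr1, a paralogue of Timd2, 568 CPM (38 cells), the adaptor Dab2 311 CPM (38 cells) and the folate receptor Folr1 321 CPM (35 cells). Cubn and Amn, whose products form the cubam receptor, were at 10 CPM in 2 and 3 cells.

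Markers of the polar and the mural side were each found in some of the cells. Polar trophectoderm touches the inner cell mass and keeps dividing under FGF signals, and mural trophectoderm stops dividing and forms giant cells. Of 7 polar genes, 2 were common (28.6%), a share near the 25.3% of all genes. These were Eomes and Fgfr2, the FGF receptor, which had a median of 59.0 CPM in 30 cells. Of 11 listed mural and giant cell genes, 5 were measured, and 3 of these were common (60%). Ndrg1, a stress-responsive gene, had a median of 48.03 CPM in 27 cells. Plac1, a placental gene, was at 43.3 CPM or more in 21 cells, up to 1227 CPM in GFP3, and at most 1.002 CPM in the other 19. Whether these 19 cells lacked Plac1 or detection missed it was not tested. The rank correlation of the polar with the mural level was 0.20, and 0.19 without GFP27. The FGF feedback gene Spry2 had a median of 198 CPM and was at 10 CPM in 36 cells. In the Hippo pathway, which sets trophectoderm fate from cell position, 1 of 12 genes was common (8.33%, against 25.3% of all genes). Yap1 and Amot reached 10 CPM in 19 and 18 cells.

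Genes of the preimplantation embryo were read in these cells. Of 12, 10 were common (83.3%, against 25.3% of all genes). This list too was chosen with earlier results of these data known, so the share is a description. Dppa5a, an RNA-binding protein gene of early embryos, had a median of 4738 CPM, from 2734 to 8518 CPM, and was among the 12 genes with the smallest SD. Dppa3, a maternal factor that protects DNA methylation, ranged from 18.4 CPM in GFP27 through 3870 to 12122 in GFP38. Zfp42, Dppa2, Dppa4 and Tfcp2l1 were at 10 CPM in 37 to 39 cells. The naive factors Klf4 and Tbx3 were at 10 CPM in 14 and 8 cells.

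GFP36 and GFP39 carried primitive endoderm genes together with 5 of the 6 trophectoderm markers. They had 15 and 12 of the 17 measured primitive endoderm markers at 10 CPM or more, against 0 to 6 in the other 38 cells. The share of cells with at least 9 of 17 was 2 of 40 (5.0%, exact 95% interval 0.611% to 16.9%). In the RFP cells no cell had more than 3. The cells just under this mark were 8 with 6 markers each, in which 4944 to 7645 genes were detected.

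**Figure D2:**
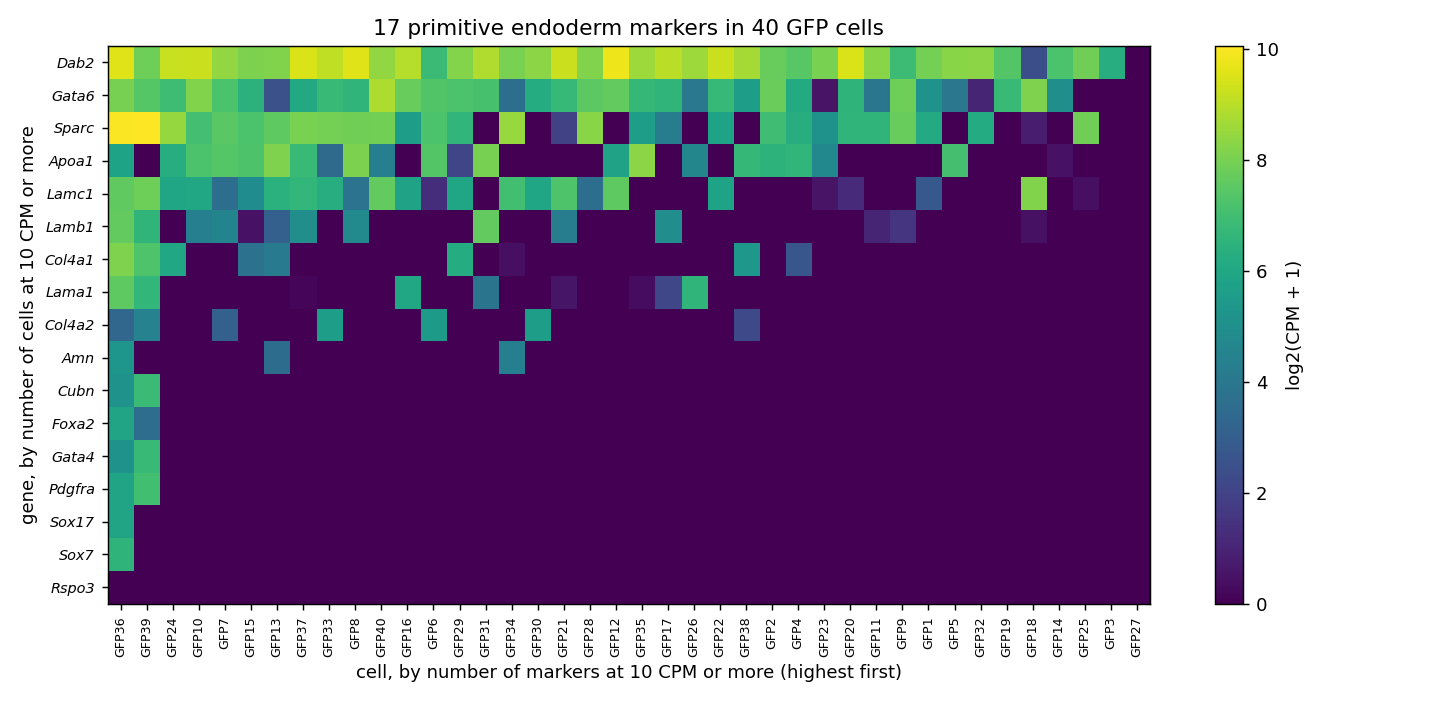
Expression of the 17 measured primitive endoderm markers (rows) in the 40 GFP cells (columns), as log2(CPM + 1) by colour, with cells in order of the number of markers at 10 CPM or more. GFP36 and GFP39 fill the lower rows, from Cubn to Pdgfra, where every other cell is at 0.

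The receptor Pdgfra had 56.9 CPM in GFP36 and 129 in GFP39 and 0 in every other cell. Gata4, a zinc finger factor of committed primitive endoderm, had 34.2 and 110 CPM, and the endocytic receptor Cubn 35.0 and 115 CPM, with 0 elsewhere. The forkhead factor Foxa2 had 57.7 and 11.02 CPM, with 0 elsewhere. The factors Sox17 (58.0 CPM) and Sox7 (91.5 CPM) were read in GFP36 and had no read in GFP39. Whether this is a difference between the cells or missed detection was not tested.

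Genes of the basement membrane were less exclusive. Sparc, a matrix glycoprotein, had 1020 CPM in GFP36 and 1062 in GFP39, and at most 358 in the other cells. Col4a1 had 277 and 156 CPM in these cells and at most 73.6 in the others, and Lama1 186 and 99.9 against at most 94.5. Lamb1 and Lamc1 reached values as high in other cells, 196 and 283 CPM. Gata6 and Dab2, on the marker list, were at 10 CPM in 34 and 38 of the 40 cells and did not mark GFP36 and GFP39. Their medians over all cells were 98.6 and 311 CPM. Of the 17 markers, 5 were common (29.4%, against 25.3% of all genes): Dab2, Gata6, Sparc, Apoa1 and Lamc1.

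Beyond the list, 29 genes (0.208% of the table) were at 10 CPM in both cells and in no other. Some are the markers that chose the cells. The genes with the largest ratio to the highest other cell included the water channel Aqp8 (222 CPM in GFP36 and 898 in GFP39), the adhesion protein gene Flrt3 (458 and 412 CPM) and the aspartoacylase gene Aspa (47.3 and 407 CPM). The proteoglycan gene Srgn had 314 and 81.4 CPM, and the endoplasmic reticulum genes Rcn1 (142 and 54.5), Ckap4 (106 and 72.3) and Asph (86.7 and 109) followed the same pattern. Sema6a and Eno4 completed it, at 33.1 to 66.9 CPM. No other cell had more than 2.02 CPM of any of these genes, which the ratio chose for low values elsewhere. The count that gave 29 genes was not made for other pairs of cells.

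Of the 6 trophectoderm markers, 5 were at 10 CPM or more in each of these cells as well. Cdx2 was not, at 5.21 CPM in GFP36 and 0 in GFP39. GFP36 had 1360 CPM of Krt8, 1696 of Krt18, 505 of Gata3, 943 of Tspan8 and 4024 of Timd2. GFP39 had 2519 CPM of Krt8, 2133 of Krt18, 330 of Gata3, 241 of Tspan8 and 4746 of Timd2. Their Krt18 values were below the median of the other cells, 4226 CPM, and GFP36 was the lowest after GFP27. Genes detected placed GFP36 and GFP39 at ranks 2 and 3 of 40 (7255 and 7189 genes), while by reads they were at ranks 23 and 7. Whether a tube held RNA of more than 1 cell was not tested.

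Epiblast genes were scarce. None of the 14 epiblast markers was common, against 25.3% of all genes. The list level was 0.59 at the median and 1.82 at most, in GFP24. Several of the markers were at 10 CPM in 1 cell. GFP1 had 312 CPM of Fgf4, the FGF ligand of the epiblast, and 95.1 CPM of Otx2, and no other cell exceeded 1.82 and 1.002 CPM. Tdgf1, a Nodal co-receptor gene, reached 80.0 CPM in GFP23 and at most 3.29 in the rest. Sox2 was at 1674 CPM in GFP27 and at most 2.02 elsewhere. Nanog was at 10 CPM in 8 cells, up to 379 CPM in GFP18, and Pou5f1 in 13, up to 183 CPM in GFP28, and for both genes near-identical processed copies may share reads. Nodal, Lefty1, Lefty2 and Prdm14 had no read in any cell.

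Markers of other sources of cells were read in a minority of the cells. The fibroblast genes Col1a2 and Thy1, the egg coat genes Zp2 and Zp3 and the red cell gene Alas2 had no read in any cell. Over 6 fibroblast, 6 oocyte and 8 blood genes none was common, against 25.3% of all genes. The globin gene Hbb-bs had a median of 0.462 CPM and was at 10 CPM in 1 cell. Vim and Fn1 were at 10 CPM in 2 cells each, with 154 CPM of Vim in GFP36, a cell with primitive endoderm genes, and 531 CPM of Fn1 in GFP27. Padi6, an oocyte gene, was at 10 CPM in 5 cells, up to 95.4 CPM in GFP13. The macrophage factor gene Spi1 was in 3 cells, up to 33.9 CPM in GFP28, and Cd68, which macrophages and other lysosome-rich cells express, in 10, up to 276 CPM in GFP2. Their part in other results was not tested.

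The number of genes detected varied widely between cells. It was 2626 in GFP27, 2804 in GFP3, 5209 at the median and 7645 in GFP24. Its rank correlation with reads was 0.23, and 0.17 without GFP27. After each cell was thinned to 1000000 reads, 2287 to 7327 genes were left, and the correlations with reads were 0.22 and 0.16. With the mitochondrial share it was -0.35, and -0.30 without GFP27. In a principal component analysis of the 3436 genes with a median of at least 10 CPM, the first component took 18.8% of the variance and had a rank correlation of 0.98 with genes detected. GFP27 made up 32.8% of its squared scores. Without GFP27 it took 15.6% of the variance, the rank correlation was again 0.98, and GFP3 made up 17.2% of the squared scores.

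Components 2 and 3 took 5.23% and 4.35%. GFP27 made up 45.9% of the squared scores of component 2 and GFP3 76.8% of those of component 3. Loadings of ribosomal, mitochondrially encoded and predicted genes were not ranked. On the first component the highest loadings were those of Nubp2, Psmc4 and Gss, an assembly factor, a proteasome subunit and glutathione synthetase, and the lowest those of Nvl, Trp53inp1 and Arglu1.

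**Figure D3:**
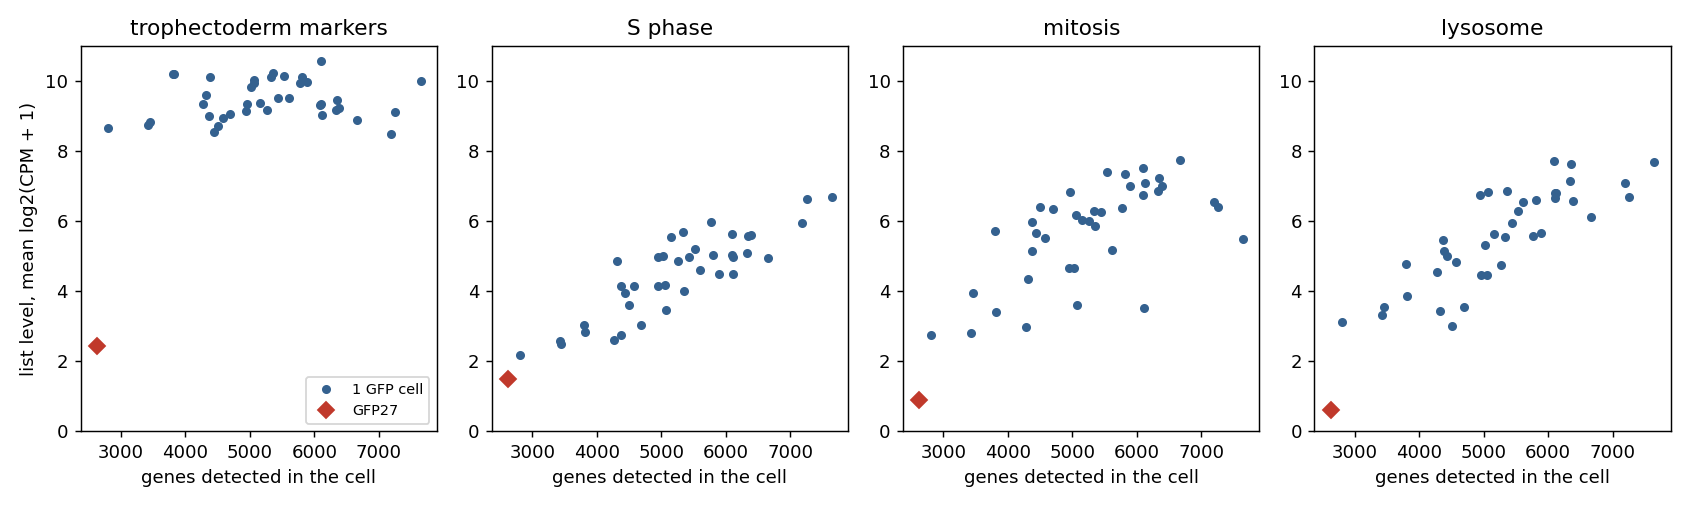
List levels (mean log2(CPM + 1) of the members, vertical axis) against the number of genes detected, with 1 point per GFP cell and GFP27 as a diamond. The trophectoderm marker level is flat apart from GFP27, whereas the S phase, mitosis and lysosome levels, whose members enter that number when detected, climb with it.

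Gene lists followed the number of genes detected to unlike degrees, across the 40 cells and with the library of each cell in common. The lysosome and S phase levels had rank correlations with it of 0.83 each, endocytic and surface genes 0.76, junctions 0.73 and mitosis and primitive endoderm markers 0.69 each. Without GFP27 these ranged from 0.67 to 0.82. The trophectoderm markers had 0.17, and 0.10 without GFP27. Their 5 common members were at 10 CPM in 39 or 40 cells, whereas the other lists hold members that were at 0 in many cells and that enter the number of genes detected themselves, so how often members were detected and how their level varied cannot be told apart here. The S phase and mitosis levels had a rank correlation of 0.62 with each other, 0.59 without GFP27, and 0.11 at equal rank of genes detected. Lysosome and junction levels had 0.72, 0.69 without GFP27, and 0.29 at equal rank. Primitive endoderm and S phase levels had 0.05 at equal rank. None of the relations computed was tested, the other pairs of lists and genes included.

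Of 17 lysosome genes, 13 were common (76.5%, against 25.3% of all genes). Cd63, a tetraspanin of late endosomes, had a median of 5812 CPM and was at 10 CPM in all 40 cells. The protease gene Ctsl (330 CPM), the sphingolipid activator gene Psap (350 CPM) and the cholesterol carrier gene Npc2 (353 CPM) were at 10 CPM in 39 cells each. The membrane protein gene Lamp1 had a median of 406 CPM in 38 cells. Of 16 cholesterol synthesis genes, 2 were common (12.5%, against 25.3% of all genes), among them Insig1 (47.2 CPM, 36 cells).

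The cells expressed genes of both S phase and mitosis. Of 28 S phase genes 20 were common (71.4%), and of 31 mitosis genes 24 (77.4%), against 25.3% of all genes. At least 14 of the S phase genes were at 10 CPM in 30 cells (75%, exact 95% interval 58.8% to 87.3%), and more than 15 of the mitosis genes in 33 (82.5%, 67.2% to 92.7%). Both held in 30 cells, mitosis alone in GFP1, GFP14 and GFP18, and neither in 7. No cell had the S phase genes alone, but GFP37 only just passed the mitosis mark, with 16 mitosis genes beside 17 S phase genes. The median member had a median of 38.4 CPM on the S phase list and 132 CPM on the mitosis list. The mark was 10 CPM for both. The 7 cells with neither had 2626 to 5067 genes detected, and the 30 with both had 4315 or more, so the ranges overlapped only between 4315 and 5067. No phase was assigned to any cell.

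**Figure D4:**
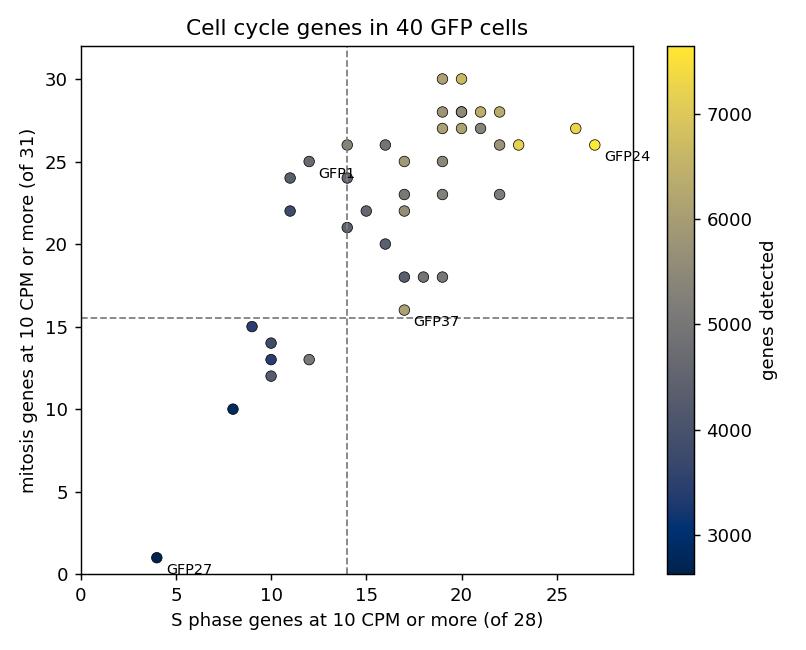
Number of mitosis genes at 10 CPM or more (of 31, vertical axis) against the number of S phase genes (of 28), with 1 point per GFP cell, coloured by genes detected. Dashed lines mark the counts used in the text, and no point lies in the lower right field. GFP37, with 16 mitosis genes, lies just above the horizontal line.

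Among S phase genes, the ribonucleotide reductase genes Rrm2 (median 674 CPM) and Rrm1 (276 CPM) were at 10 CPM in 39 and 38 cells, the clamp gene Pcna (288 CPM) in 38 and the thymidylate synthase gene Tyms (282 CPM) in 36. The helicase genes Mcm5 and Mcm6, which load onto origins, were in 31 and 30. The G1/S cyclins Ccne1 and Ccne2 were in 16 and 24 cells, and both in 10. Among mitosis genes, the ubiquitin-conjugating gene Ube2c (345 CPM) was at 10 CPM in all 40 cells and Birc5 (743 CPM), a chromosomal passenger, in 39. The mitotic cyclins Ccnb1 (550 CPM) and Ccnb2 (494 CPM) were in 36 cells each, and Cdk1 (376 CPM) in 33. GFP28 was the highest cell for Ccnb1 (2514 CPM), Cdc20 (1739 CPM) and Ube2c (1348 CPM).

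Some cells departed from the relation with genes detected. GFP37, with 6107 genes, had a mitosis level of 3.53, against a median of 6.02 over all cells. GFP24, the cell with the most genes, had the highest S phase level (6.70) and a mitosis level of 5.49. The mitosis level was highest in GFP10, at 7.73.

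Of 12 cyclins and inhibitors, 4 were common (33.3%), a share near the 25.3% of all genes. Cdkn1a, the inhibitor p21, had a median of 614 CPM and was at 10 CPM in 39 cells, up to 2741 CPM in GFP33. Gmnn, which blocks re-licensing of origins, had a median of 346 CPM in 39 cells. Of the D cyclins, Ccnd3 was at 10 CPM in 16 cells, Ccnd1 in 3 and Ccnd2 in 1. Cdkn1c, linked to giant cell formation, was in 8.

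Of 11 p53 targets 7 were common (63.6%, against 25.3% of all genes). Among them were Ccng1 (median 265 CPM, 37 cells) and Mdm2 (230 CPM, 35 cells). GFP33 had 1330 CPM of Mdm2 and 1057 of Pmaip1, a gene of apoptosis, and GFP35 had 1579 and 221. GFP25 had 1409 CPM of Cdkn1a beside 0.316 CPM of both Ccng1 and Pmaip1, so these targets did not always appear in the same cells. Of 10 amino acid stress genes, 2 were common (20.0%, against 25.3% of all genes), Atf4 and Ddit3. Asns, the asparagine synthetase, was at 1531 CPM in GFP39 against a median of 4.76.

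Reads of 7 Y-linked genes divided the GFP cells. Their summed level was 31.7 to 872 CPM in 25 cells (at least 176 reads each) and at most 1.45 CPM in 15 (at most 8 reads each, with no read in 6), and no cell lay between. Eif2s3y, a translation factor gene with a close X-linked copy, was at 10 CPM in 21 cells and Ddx3y, an RNA helicase gene, in 17, whereas Uty was in 8 and Kdm5d in 4. Cells of 1 embryo normally have the same sex chromosomes, and the labels name no embryo. The 15 cells held 2.06 to 8.12 M reads. Genes detected overlapped between these cells, from a lowest value of 3800 among the 25 to a highest of 6385 among the 15.

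**Figure D5:**
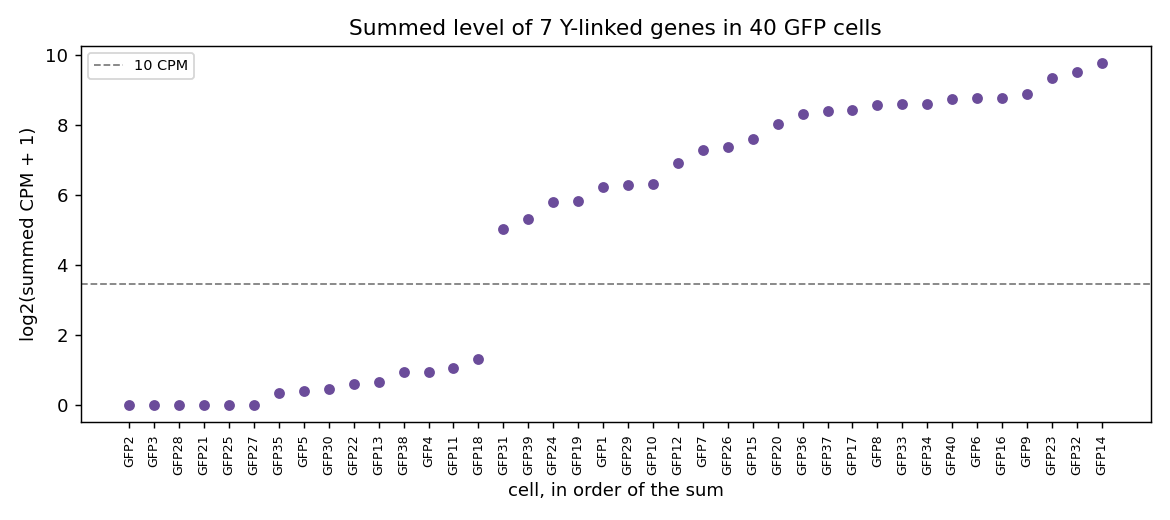
Summed level of 7 Y-linked genes as log2(CPM + 1) on the vertical axis, with 1 point per GFP cell in order of the sum. The 25 cells above the dashed line at 10 CPM start at 31.7 CPM, and the 15 under it end at 1.45 CPM.

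Genes differed in how even they were across cells. Among the 2343 genes with a median of at least 50 CPM, the SD of log2(CPM + 1) had a median of 2.44, and over 79 ribosomal protein genes it was 0.66. Ribosomal, mitochondrially encoded and predicted genes were left out of the ranking that follows. The most even were the respiratory chain gene Cox6a1 (SD 0.37, 522 to 2088 CPM), the nuclear transport gene Ran (0.38) and the splicing gene Snrpg (0.40). The least even was Trim43a, a gene of the early embryo, at 3.83, with 30 cells at 10 CPM and values from 0 to 1260 CPM, and its near-identical copies may share reads. Napa (3.71), Rnf115 (3.70) and Pmaip1 (3.70) came next. In all, 224 genes were at 10 CPM in every cell and 7429 in 1 to 19 cells.

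The genes with the most reads were the actin gene Actb (median 13332 CPM) and the chaperone gene Hsp90aa1 (10511 CPM), and H3f3b, Cd63 and Ubb were also among the 20 with the highest medians. The metallothionein gene Mt1 (5182 CPM), the homeobox gene Crxos (4682 CPM) and Lrpap1, which chaperones receptors of the Lrp2 family (3220 CPM), were among them too.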

How the data were processed

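RNA of single picked cells was amplified as full-length cDNA and sequenced, per the labels' protocols. Per the submitters' processing notes, the build was mm10 and the tools used anywhere in the series were DESeq2 1.30.0, STAR 2.7.3a, fastp 0.20.0, featureCounts 2.0.0, deepTools 3.3.1 and StringTie 2.0, without their roles. The values deposited by the authors are a signal, gene reads divided by 1 factor per cell. Division by the smallest step of each cell left 100% of values as whole reads, to within 0.01, and 88.0% of the counts above 0 were even numbers. The sources used here do not say how read pairs were counted. The 40 cells held 223.6 M reads. Of 13927 genes, 13922 were matched to a symbol.

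CPM were computed over all genes, with a pseudocount of 1 on the log2 scale, in Python 3.11.15, pandas 2.3.3 and numpy 2.4.6. Spearman's rank correlation was used, and the steps were tested on simulated data. No count model was run, since no label names an embryo and the cells form 1 sample. Named genes were the list members, the 20 highest medians, the 12 largest and 12 smallest SDs at a median of at least 50 CPM, the 10 highest and lowest loadings of 3 components and the 12 genes most exclusive to the cells with primitive endoderm genes. Ribosomal, mitochondrially encoded and predicted genes were left out of the rankings by median, SD, loading and exclusiveness. Component 1 without GFP27 was added, and cells named for a value were chosen, after seeing the data. The lists and members were chosen with earlier results of these data known. Alternatives changed the pseudocount, scaling, thresholds and cells. List members absent from the table, such as Hand1, were not analysed here. Some genes that the rule names are not reported here.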

Additional observations from a re-analysis of the deposited data

How the results depend on the processing

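Of 75 alternative values, 59 stayed within the spread of the main value and 16 moved. No correlation changed sign, and levels and counts cannot, since they are never negative. The allowed spread was 1 SD over cells for levels and genes detected, 1.5 times for counts of cells or genes and 0.1 for correlations. With a pseudocount of 10 the median levels were 5.4 for trophectoderm transcription factors, 4.13 for polar and 4.83 for mural genes, 4.22 for primitive endoderm and 3.50 for epiblast markers, against 3.73, 1.78, 2.87, 1.71 and 0.59, since a larger pseudocount lifts genes at 0. On the values as deposited they were 11.4 for trophectoderm markers, 5.0 for their factors, 2.68 for polar genes, 1.09 for epiblast markers, 6.37 for S phase and 7.75 for mitosis, against main values of 9.34, 3.73, 1.78, 0.59, 4.73 and 6.02, since these values are not scaled to the same total. At 6 of the 17 members, 10 cells in place of 2 counted as having primitive endoderm genes. Genes per cell had a median of 4010 at 10 CPM or more. Pearson's r of trophectoderm markers with genes detected was 0.37, a value that includes GFP27. The relation of S phase with mitosis was 0.48 with a pseudocount of 10 and 0.11 at equal rank of genes detected. The last value, the level without GFP36 and GFP39 and the alternatives for cells with S phase genes were added after seeing the data. No paired analysis was possible because the numbers in the titles mark cells and no test was run.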

Other observations

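GFP27 stood apart from the other cells. It had 949 genes at 10 CPM, against 2060 in the next lowest cell, and its 100 highest genes took 49.1% of its reads, against at most 39.6% elsewhere. In it 297 genes were at 1000 CPM or more, against 97 to 202 in the other cells, and 7 of these were under 10 CPM in every other cell. They were Col18a1 (2403 CPM, from 4962 reads), Fam71e2 (2203 CPM), Zc3h7b (1805 CPM), Sox2 (1674 CPM), Isg15 (1627 CPM), Rnf217 (1410 CPM) and Ddx60 (1015 CPM). Its Dppa5a was 7336 CPM, within the range of the other cells. Hells, a chromatin remodeller gene, was at 3545 CPM and the mitosis level at 0.89.

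The 11 connexin genes of the table were read after their values were seen, because the study concerns Gjb2. Of the 11, 2 were common, against 25.3% of all genes. Among these, Gja1 had a median of 503 CPM, up to 3082 in GFP18. Gjb5 was at 10 CPM in 19 cells, up to 303 CPM in GFP39. Gjb2, the gap junction gene of the deafness model, had at most 0.316 CPM in any GFP cell.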
